A study of Mus musculus with 6 samples.

Results

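The miR-106b-25 cluster (probes 1org-106b, 1org-93 and 2org-25), miR-106a of its X-linked paralogue (1org-106a) and the probe 2org-106, whose name has no letter and does not settle its cluster, were followed through a comparison of mouse CD4+CD25+ natural regulatory T cells with conventional CD4+CD25- T cells. These 5 probes were taken by their identifiers, out of 171 miRNA probes on the array. Total RNA of the pair of cell populations was hybridised to each of 6 two-colour arrays, which the series describes as 3 biological replicates, each also run with the dyes exchanged. The CD4+CD25+ RNA carried Cy5 on arrays 1, 3 and 5 and Cy3 on arrays 2, 4 and 6, with the CD4+CD25- RNA in the other channel. The sources used here do not give strain, age, treatment or how cells were sorted, nor do they say which arrays form a replicate or whether replicates were separate animals, so p-values measure only the spread between these samples. The labels separate the populations by CD25 alone, which activated conventional T cells also carry, and Foxp3 cannot be read on a miRNA array. In bulk RNA, fewer cells that express a miRNA and less of it per cell cannot be told apart.

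A miRNA guides an Argonaute protein to messenger RNAs, mainly through pairing of its seed, bases 2 to 8, and lowers their output. The miR-106b-25 cluster is transcribed within an intron of Mcm7, a subunit of the helicase that opens DNA for replication, so it is made together with a gene of dividing cells. miR-106b and miR-93 are known to lower the cell cycle inhibitor p21 (Cdkn1a), and miR-25 the death-promoting protein Bim, and through these targets the cluster can weaken growth arrest by TGF-beta, a cytokine that also induces Foxp3 in T cells. miR-106a belongs to an X-linked copy of the miR-17-92 cluster, a driver of lymphocyte growth.

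Of the 5 probes, 4 were matched to a mature miRNA of RefSeq (mouse build GRCm38.p6) by number and letter, taking the arm to which the undivided name refers. The array's annotation gave a symbol for 2 of the 5, 1org-93 (Mirn93) and 2org-25 (Mirn25). The probe 2org-106 carries no letter and is reported by its identifier only. Mir106b lies at chr5:138165737-138165818, Mir93 at chr5:138165523-138165610 and Mir25 at chr5:138165321-138165404, all on the minus strand within the span of Mcm7 and within 498 bases of each other. Mir106a lies at chrX:52742503-52742567, also on the minus strand. The sequences are shown because the members fall into a pair of seed groups and because several relatives differ from them by only a few bases. The seed is in capitals, 5′ to 3′.

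miR-106b-5p: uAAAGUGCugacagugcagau
miR-93-5p: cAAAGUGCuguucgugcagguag
miR-106a-5p: cAAAGUGCuaacagugcagguag
miR-17-5p: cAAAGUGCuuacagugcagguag
miR-20a-5p: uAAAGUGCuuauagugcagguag
miR-25-3p: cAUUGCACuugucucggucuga
miR-92a-3p: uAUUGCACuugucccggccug
miR-32-5p: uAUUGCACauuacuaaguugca

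miR-106b, miR-93 and miR-106a share the seed AAAGUGC with miR-17-5p and miR-20a of the miR-17-92 cluster, while miR-25 shares AUUGCAC with miR-92a of that cluster and with miR-32. Counting positions from 1 at the 5′ end, miR-106a and miR-17-5p differ by A10U alone, and miR-17-5p and miR-20a by C1U and C12U. miR-106a and miR-106b are 5 bases apart (changed, inserted or removed), and miR-25 is 12 to 13 bases from the other 3 members with a sequence. miR-93 is 3 bases from miR-17-5p, and miR-25 is 4 from miR-92a. A hybridisation probe may not separate RNAs this alike. The ratios of the members, 2org-17-5p, 1org-20 and 1org-92 are therefore uncertain as measures of single miRNAs. For 2org-106 there is no sequence to compare.

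The values that follow are log2 ratios, CD4+CD25+ cells over CD4+CD25- cells, with the sign of arrays 2, 4 and 6 turned so that all arrays point the same way. The deposited log ratio was read as Cy5 over Cy3 and as base 2. The file states neither, and reading it as Cy3 over Cy5 would invert all signs. It also does not state whether swapped arrays had already been turned. If they had, the members' means as deposited would lie above 0, from 0.018 (miR-106a) to 0.64 (miR-25). Relative to the median they would run from 0.89 to 1.52. After turning, miR-223, the probe with the highest mean, was above 0 on all 6 arrays, at 2.93 to 4.99. Its deposited sign thus changed with the dye. miR-32 did the reverse, with a deposited value below 0 on every array. Between turned arrays of opposite dye the probes correlated at -0.251 to 0.369, against 0.521 to 0.918 within an orientation. Medians of the turned arrays were -0.085, -0.31 and 0.097 with CD4+CD25+ cells in Cy5 and 1.83, 1.29 and 1.82 with them in Cy3, so the zero point decides much of what follows. Both the deposited values and those relative to each array's median are therefore given. No scanner intensities were used here, so levels and detection are unknown, and the number of arrays limits the precision.

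In the Mcm7 cluster, miR-106b (1org-106b) was below 0 on all 6 arrays. Its ratio was -0.27, -0.048 and -0.22 on arrays 1, 3 and 5, and -0.65, -1.01 and -0.55 on arrays 2, 4 and 6. Over all miRNA probes 70.2% had a dye effect in limma, and 7.02% were higher with CD4+CD25+ cells in Cy5. How many probes did not overlap between orientations was not counted. For miR-106b the 3 values with CD4+CD25+ cells in Cy3 were all lower than the 3 with them in Cy5. The mean was -0.46 ± 0.171 (SD, n = 3 replicates, each a pair of arrays of opposite dye; the largest SD and p over the 6 possible pairings are given throughout), and it did not pass the test (limma adjusted p = 0.111; 95% interval -0.99 to 0.075).

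miR-93 (1org-93), encoded next to miR-106b and with the same seed, had 0.15, 0.56 and -0.048 on arrays 1, 3 and 5, and -0.32, -0.83 and -0.47 on arrays 2, 4 and 6. It was thus near or above 0 in one dye orientation and below 0 in the other, without overlap. The mean of -0.16 ± 0.280 was the closest to 0 of the members (limma adjusted p = 0.568; interval -0.69 to 0.37). It ranged from -0.30 (without arrays 3 and 2) to -0.022 (without arrays 5 and 4) when a pair of opposite arrays was left out. miR-93 stood above miR-106b on 6 of 6 arrays, by 0.074 to 0.61.

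miR-25 (2org-25), the member of this cluster with the other seed, had 0.30, 0.44 and -0.047 on arrays 1, 3 and 5, and -0.59, -1.80 and -0.77 on arrays 2, 4 and 6. Array 4 gave the lowest value of any member on any array. The mean was -0.41 ± 0.449 (limma adjusted p = 0.150; interval -0.94 to 0.12). The orientations did not overlap, on arrays where 70.2% of all miRNA probes had a dye effect in limma. Without arrays 1 and 4 the mean was -0.24, and without arrays 5 and 4 it was -0.16 ± 0.112 (SD, n = 2 replicates); the 3 fits without array 4 gave -0.28 to -0.16.

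miR-106a (1org-106a) was below 0 on all 6 arrays, with -0.39, -0.19 and -0.58 on arrays 1, 3 and 5, and -0.046, -0.77 and -0.45 on arrays 2, 4 and 6. Its values in the dye orientations overlapped. Its mean was -0.40 ± 0.279 (limma adjusted p = 0.155; interval -0.94 to 0.13).

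The probe 2org-106 had 0.27, 0.34 and -0.099 on arrays 1, 3 and 5, and -0.70, -1.27 and -1.0 on arrays 2, 4 and 6. This probe had no overlap between orientations, where 70.2% of all miRNA probes had a dye effect in limma. Its mean of -0.41 ± 0.255 (limma adjusted p = 0.150; interval -0.94 to 0.12) was close to that of 1org-106a. The difference between these probes, 1org-106a minus 2org-106, ran from -0.66 to 0.65 and was negative on 3 arrays and positive on 3.

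**Figure D1:**
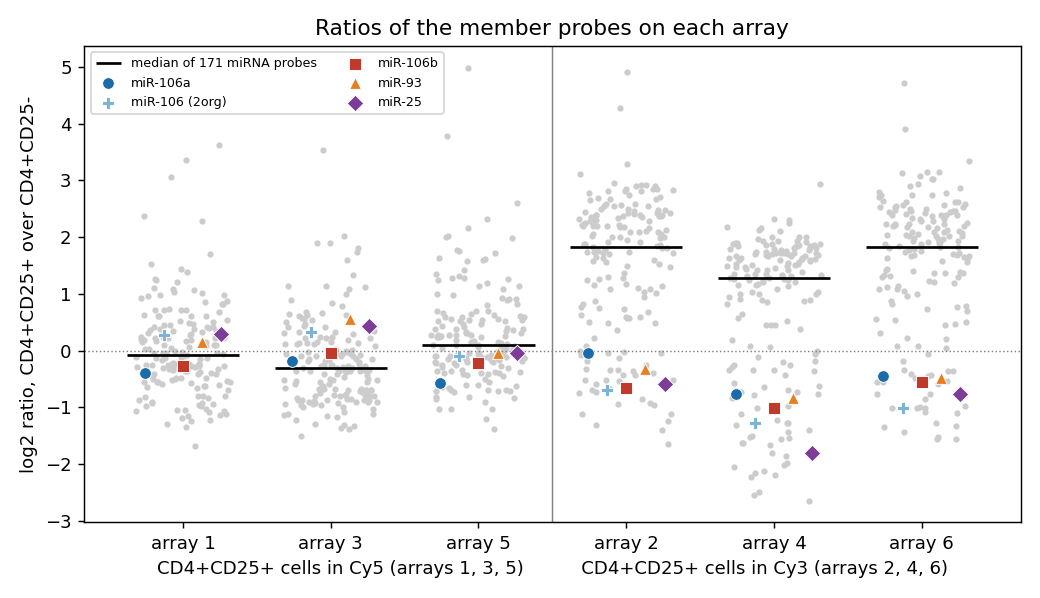
Log2 ratios (CD4+CD25+ cells over CD4+CD25- cells) on each of 6 arrays, with the sign of arrays 2, 4 and 6 turned; coloured symbols are the 5 member probes, grey points all 171 miRNA probes (spread sideways for legibility) and black lines their median on each array. The members lie around the median on arrays 1, 3 and 5, and between -1.87 and -3.08 relative to it on arrays 2, 4 and 6.

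As deposited, 0 of the 5 members passed in limma, and 0 did at an unadjusted p under 0.05. Among all miRNA probes 67.3% were called higher and 8.77% lower, and the median of the probe means was 0.82, against -0.41 over the members. The limma standard error was the same, 0.271, for each of the 5, because the variance was pooled over all probes, so the p-values do not follow from each member's own SD. On the same 6 arrays fitted with a column for the dye, miR-106b alone passed as lower (limma adjusted p = 0.0471, against 0.0743 to 0.468 for the other 4), where 10.5% of all miRNA probes did. That fit takes the 6 arrays as independent, although they come from 3 replicates. Its p-values thus rest on more units than there are replicates.

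Relative to the array median, all 5 members were lower in CD4+CD25+ cells. miR-106b stood at -1.23 ± 0.195 (limma adjusted p = 0.000205), or 2.35-fold lower, and miR-93 at -0.93 ± 0.299 (adjusted p = 0.00166), or 1.91-fold lower. Both miR-106a (adjusted p = 0.000349) and 2org-106 (adjusted p = 0.000373) stood at -1.18, with SDs of 0.299 and 0.295, and miR-25 at -1.18 ± 0.396 (adjusted p = 0.000492). The limma standard error was again the same, 0.199, for each of the 5. These p-values therefore rest on the variance pooled over all probes and do not follow from each member's own SD. On this scale 22.8% of all miRNA probes were called lower and 5.26% higher. The median probe mean was 0.051, and that of the members -1.18. Leaving out arrays 1 and 6 left 2 of the 5 members called lower.

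The direction rested on the zero point. Centring on 21 probes for miRNAs of other tissues gave -1.41 for miR-106b to -1.11 for miR-93, with 5 of 5 lower (limma adjusted p of 0.000484 to 0.00166), beside 23.4% of all miRNA probes. Centring on U6 and the tRNA probes instead put all 5 just above 0, from 0.0090 for miR-106b to 0.30 for miR-93, and 0 of 5 passed (limma adjusted p of 0.521 to 0.982), while 73.7% of all miRNA probes were called higher. These zero points moved the mean ratio by 0.95 and -0.47 from the deposited scale, and the array median by 0.77. The order of the members was kept under each of them, since a zero point shifts all probes of an array alike.

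**Figure D2:**
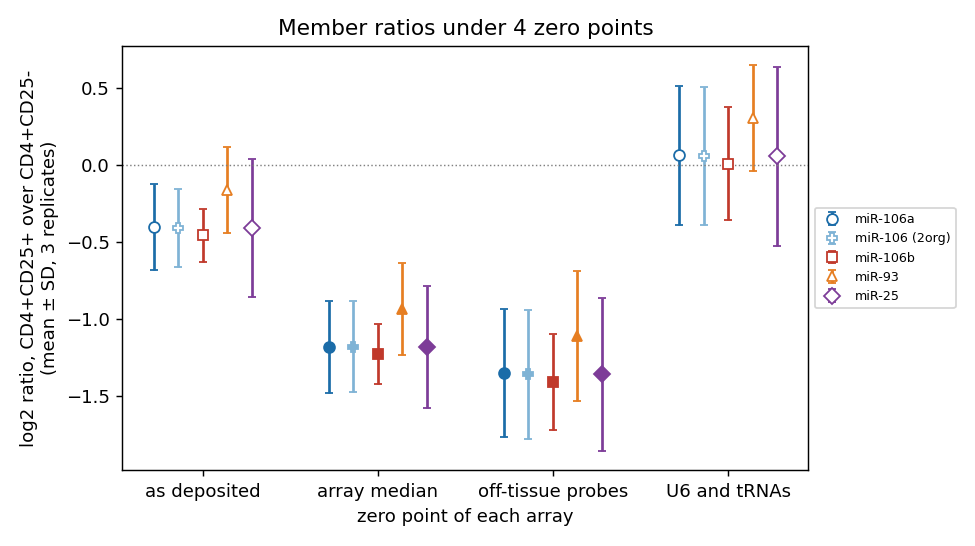
Mean log2 ratio (CD4+CD25+ cells over CD4+CD25- cells) for the 5 members (bars are the SD over 3 replicates, the largest of 6 pairings) with each array's zero taken as deposited, at its median miRNA probe, at 21 off-tissue probes, or at U6 and the tRNAs. Filled symbols passed the limma test at an adjusted p of 0.05; the members passed with the median and off-tissue zero points and lay at 0.0090 to 0.30 with U6 and the tRNAs.

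The ratio also differed by dye. Over all miRNA probes 70.2% had a dye effect in limma, and 107 of the 171 had a ratio higher by over 1 with CD4+CD25+ cells in Cy3, including 17 of the 21 off-tissue probes. None of the 5 members was among those 107. In the members the difference had the opposite sign, as in 12 of the 120 probes with a dye effect (7.02% of all). The ratio with CD4+CD25+ cells in Cy5 exceeded that in Cy3 by 1.28 for miR-25 (means 0.23 and -1.05; limma adjusted p = 0.0129) and by 1.16 for 2org-106 (means 0.17 and -0.99; adjusted p = 0.0182). The difference was 0.76 ± 0.425 (SE) for miR-93 (adjusted p = 0.107), 0.56 ± 0.419 for miR-106b (adjusted p = 0.222) and 0.035 ± 0.425 for miR-106a (adjusted p = 0.951), none of which passed.

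After median centring the dye difference passed for all 5 members, at 1.78 (miR-106a) to 3.03 (miR-25; limma adjusted p of 0.000168 or less). On this scale 78 probes had a dye effect, 58 of them in the members' direction (33.9% of all). With CD4+CD25+ cells in Cy5 the members stood at -0.29 (miR-106a), -0.078 (miR-106b), 0.27 (2org-106), 0.32 (miR-93) and 0.33 (miR-25) relative to the median, and 0 of 5 passed on those 3 arrays alone in limma (0 at an unadjusted p under 0.05; 3.51% of all miRNA probes were called lower there). With CD4+CD25+ cells in Cy3 they stood at -2.07, -2.38, -2.64, -2.19 and -2.70, and all 5 passed, on arrays where 59 of the 171 probes (34.5%) were called lower. Ranked from the lowest ratio among 171 probes, the members held places 12 to 32.5 on arrays 2, 4 and 6, but 52 to 117 on array 1, 99 to 148 on array 3 and 23 to 73 on array 5. Below the array median lay 2, 0 and 5 of the 5 members on arrays 1, 3 and 5, and all 5 on each of arrays 2, 4 and 6.

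**Figure D3:**
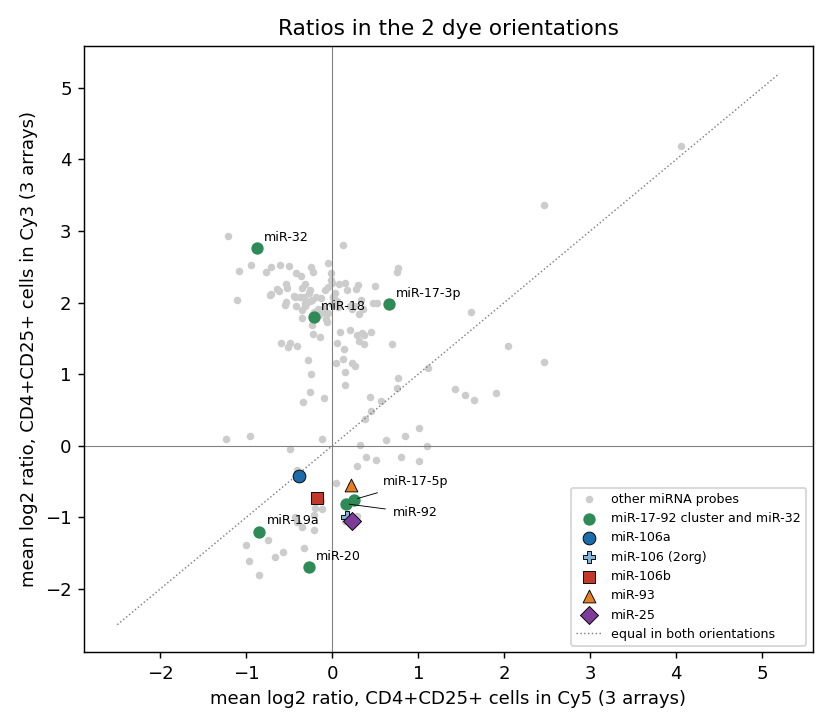
Mean log2 ratio of each miRNA probe over arrays 1, 3 and 5, with CD4+CD25+ cells in Cy5 (x axis), and over arrays 2, 4 and 6, with them in Cy3 (y axis, sign turned); the dotted line marks equal values. The members lie at or below the line, with miR-25 at 0.23 and -1.05, near miR-17-5p and miR-92, while miR-18 and miR-17-3p lie near 2 on the y axis, at 1.79 and 1.98, and miR-32 at 2.76.

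Over the 10 pairs of members the root mean square difference of the ratios on the 6 arrays, a measure that no centring changes, ran from 0.24 (2org-106 and miR-25) to 0.66 (miR-106a and miR-25) with a median of 0.39. The median over all 14535 pairs of miRNA probes was 1.17. Within an array the 5 members spanned between 0.53 (array 5) and 1.02 (array 4).

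The other probes of the paralogous clusters were called in both directions. As deposited, of the 7 probes of the miR-17-92 cluster and miR-32, miR-20 (-0.98 ± 0.383, limma adjusted p = 0.00606) and miR-19a (-1.02 ± 0.477, adjusted p = 0.00728) were lower, beside 8.77% of all miRNA probes. Called higher were miR-18 (0.79 ± 0.510, adjusted p = 0.0146), the passenger strand miR-17-3p (1.32 ± 0.952, adjusted p = 0.00803) and miR-32 (0.94 ± 0.493, adjusted p = 0.00945), so 3 of the 7, beside the 67.3% of all probes. These 3 had higher means with CD4+CD25+ cells in Cy3. miR-18 had a mean of -0.22 on arrays 1, 3 and 5 and of 1.79 on arrays 2, 4 and 6 (dye difference -2.01, limma adjusted p = 0.000343). For miR-17-3p the means were 0.66 and 1.98 (-1.32, adjusted p = 0.0384), and for miR-32 -0.88 and 2.76. The miR-17-3p values overlapped between orientations, with -0.27, -0.35 and 2.60 on arrays 1, 3 and 5. miR-17-5p (-0.25 ± 0.354) and miR-92 (-0.33 ± 0.499) did not pass. Relative to the median 4 of the 7 were lower, beside 22.8% of all miRNA probes. They were miR-17-5p (-1.02), miR-92 (-1.10), miR-20 (-1.76) and miR-19a (-1.80), and miR-18 (0.016), miR-32 (0.17) and miR-17-3p (0.55) did not pass. With U6 and tRNA centring the 4 lower calls ended and miR-18, miR-17-3p and miR-32 were higher, beside 73.7% of all miRNA probes. miR-92a is encoded in the miR-106a cluster as well as in miR-17-92, so 1org-92 cannot be assigned to either. Of 6 listed miRNAs of the miR-106a cluster 2 had a probe, 1org-106a and 1org-92. Among those without a named probe were miR-20b, miR-18b and miR-363.

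Of the 11 pairs of these probes that are 5 or fewer bases apart, 10 had a root mean square difference of 0.21 to 0.92, and miR-18 with miR-20 had 2.54. The 38 pairs that are 10 or more bases apart ran from 0.20 to 3.21, with a median of 1.26, so distant sequences had both like and unlike ratios. miR-17-5p, a single base from miR-106a, differed from 1org-106a by a root mean square of 0.53, but from miR-25, 13 bases away, by 0.24 and from miR-93 by 0.21. Between miR-25 and miR-92, 4 bases apart, the difference was 0.28, whereas miR-32 with the same seed was 2.83 from miR-25. miR-32 had -0.84, -1.11 and -0.69 on arrays 1, 3 and 5 and 3.30, 1.87 and 3.12 on arrays 2, 4 and 6. Its ratio thus turned with the dye by -3.64 (limma adjusted p = 5.09e-07), the reverse of miR-25. miR-20 stood below miR-93 on 6 of 6 arrays, by 0.28 to 1.29, and below miR-25 on 6 of 6, by 0.33 to 0.81. Of the mature sequences, miR-32 has the lowest GC content at 31.8%, against 42.9% to 52.2% in the members and 57.1% in miR-92a. Next lowest, miR-19a (34.8%) had no called dye difference (0.35, limma adjusted p = 0.475), and miR-20a (39.1%) had that of the members (1.43). miR-18a (43.5%) and miR-17-3p (54.5%) had the direction of miR-32. The part of GC content in the ratios was not tested.

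**Figure D4:**
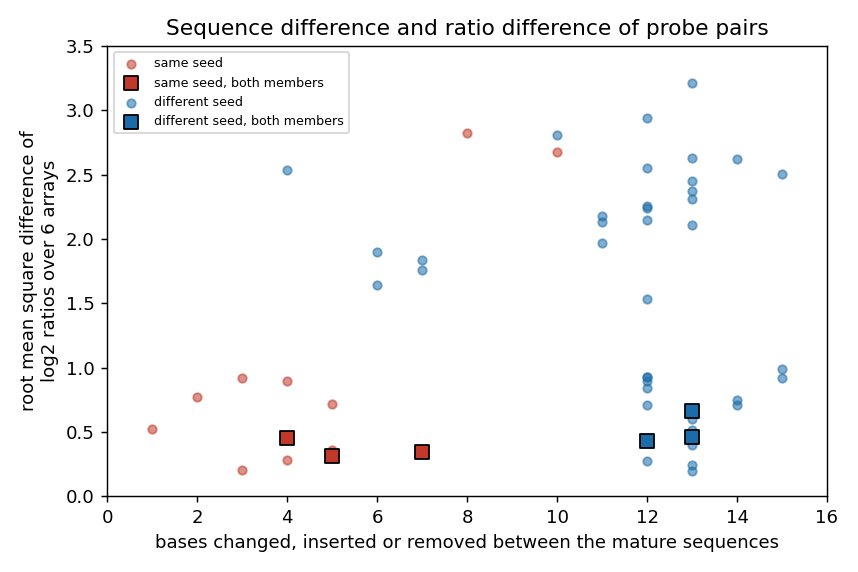
Each point is a pair of the 11 member and related probes with a RefSeq sequence (55 pairs): bases changed, inserted or removed between the mature sequences (x axis) against the root mean square difference of their log2 ratios over 6 arrays (y axis). Squares are pairs of members, all between 0.32 and 0.66 whether the seed is shared or not; the same-seed pairs of miR-32 with miR-25 and miR-92 lie at 2.83 and 2.67.

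Outside these clusters, the probes with the ratios most like the mean of the members over the 6 arrays were miR-321 (2org-321, root mean square difference 0.23), miR-30d (0.25), let-7i (1org-7i, 0.25), miR-29a (0.30) and miR-30c (0.38). The members themselves, which make up that mean, stood at 0.19 (miR-106b), 0.22 (2org-106 and miR-93), 0.32 (miR-25) and 0.37 (miR-106a), so 4 of these 5 other probes lay nearer than miR-106a did. For comparison, miR-17-5p stood at 0.19 and miR-92 at 0.23. As deposited miR-29a (-0.59 ± 0.325, limma adjusted p = 0.0410) and miR-30c (-0.74 ± 0.338, adjusted p = 0.0106) were called lower, and miR-321 (-0.24), miR-30d (-0.45) and let-7i (-0.50) were not. All 5 were lower relative to the median, with means of -1.01 to -1.51 (limma adjusted p of 0.00145 or less).

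Of the miRNAs that mark blood lineages, 7 lymphoid probes (of miR-142, miR-150 and miR-181) had a median of -0.69 as deposited, with 4 lower and 3 not called. Relative to the median they had -1.46, with 6 lower. Of all miRNA probes, 8.77% and 22.8% were lower on these scales. Off-tissue centring gave 7 lymphoid probes lower, beside 23.4% of all miRNA probes. U6 and tRNA centring gave 0, beside 1 of all 171 probes. The myeloid miRNA miR-223 was higher at 4.12, or 3.34 relative to the median. The erythroid miR-144 was called higher as deposited, at 0.69 (limma adjusted p = 0.0302), like 67.3% of all probes, but not relative to the median, at -0.079. These are ratios and do not show which cells were present. Their part in the members' ratios was not tested.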

How the data were processed

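Mouse total RNA was compared on 6 two-colour miRNA arrays. The deposited table gives the authors' log2 ratio of the channels per probe (log base assumed) for 178 probes, 171 of them for miRNAs. The sources used here do not give scanning, background correction or normalization, and the values were not median-centred. Arrays with CD4+CD25+ cells in Cy3 were multiplied by -1.

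limma 3.58.1 (R 4.3.3) was fitted over all 171 miRNA probes with lmFit and eBayes to 3 replicate values, each the mean of arrays of opposite dye, for all 6 pairings. A probe was called when its largest Benjamini-Hochberg adjusted p was under 0.05. The dye was tested on 6 arrays with a dye column, taken as independent although they come from 3 replicates. The steps were tested on simulated data. The simulated dye effects were centred on 0 and no array was shifted as a whole, so that test does not bear on the zero point. Sequences came from RefSeq tables (GRCm38.p6), read with Python 3.11.15. Named probes were the 5 members, the other measured miR-17-92 probes, probes sharing a member's seed, and the 5 other probes nearest to the members' mean. Blood lineage miRNAs were added as markers. Members and lists were chosen with earlier results of these data known. Alternatives were other zero points, array scaling, a dye column, single orientations, no turning and leaving out array pairs.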

Additional observations from a re-analysis of the deposited data

Results flagged for a closer look

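The ratio of 2 members differed between the dye orientations by a test of the difference itself. For 2org-106 the ratio with CD4+CD25+ cells in Cy5 was higher by 1.16 than with them in Cy3 (limma adjusted p = 0.0182, over all 171 miRNA probes). For 2org-25, the miR-25 probe, it was higher by 1.28 (limma adjusted p = 0.0129). A dye effect was called for 70.2% of the probes (120), of which 12 had this direction. Both were above 0 on arrays 1 and 3 and below 0 on the other 4.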

How the results depend on the processing

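Against 130 calls as deposited (88.5% of them higher), median centring gave 48 (18.8% higher), off-tissue centring 47 (14.9%), scale normalization 13 (69.2%), the CD4+CD25+ in Cy5 arrays 19 (63.2%), and leaving out a pair of opposite arrays 0 (without arrays 3 and 2; limma, 98 at an unadjusted p under 0.05) to 127. U6 and tRNA centring gave 127 (99.2%), and reading no array as swapped gave 91 (3.3%). Against the 48 calls relative to the median, U6 and tRNA centring gave 127, the Cy5 arrays 18, the Cy3 arrays 98, no turning 77, centring on the 51 probes without a dye effect 142 (83.8% higher), and leaving out a pair 21 to 49. The dye effect fell from 120 to 78 probes with median centring.

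Against 0 members called as deposited, 5 were lower with median centring, beside 39 of all probes, and 5 with off-tissue centring, beside 40. On the zero point of the 51 probes without a dye effect 4 members were lower (miR-93 not, at -0.19), beside 23 of all probes. That zero point was chosen after seeing the data. On the Cy3 arrays alone 3 members were lower, beside 25 of all probes, and with a dye column 1, beside 18. With no array turned 2 members were higher, beside 3 of all probes. Against 5 lower relative to the median, 0 were called with U6 and tRNA centring and 0 on the Cy5 arrays alone (limma, 0 at an unadjusted p under 0.05 in each). Of all probes, 1 and 6 were lower in these settings. Leaving out a pair gave 2 members (without arrays 1 and 6, beside 20 of all probes lower) to 5. The signs of all 5 members held in 9 of 9 such fits on both scales, with the lowest and highest means at -0.58 and -0.022 as deposited.

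Signs turned as follows. With U6 and tRNA centring the values were 0.062 (miR-106a), 0.056 (2org-106), 0.0090 (miR-106b), 0.30 (miR-93) and 0.055 (miR-25). On the Cy5 arrays alone 2org-106, miR-93 and miR-25 had 0.17, 0.22 and 0.23 as deposited and 0.27, 0.32 and 0.33 relative to the median. Scale normalization put miR-93 at 0.032 as deposited. If the authors had already turned the swapped arrays, the values in the order above would be 0.018, 0.58, 0.28, 0.38 and 0.64 as deposited. Of these, 2org-106 and miR-25 pass as higher, beside 3 of all miRNA probes. Relative to the median the values would be 0.89, 1.45, 1.15, 1.26 and 1.52, all 5 higher, beside 59 of all miRNA probes. These changes follow from the zero point or sign each setting sets, or from the arrays it leaves out; the cause of the scale normalization result was not tested. No paired analysis was possible because the labels leave unsaid which arrays make up a replicate, so all pairings were fitted. Without intensities, signal over background is unknown.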
